A study of Homo sapiens with 21 samples.

Results

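Chromatin modifiers and remodelers are the enzymes and complex subunits that write, erase and read histone marks or slide nucleosomes. They were chosen here by name alone: the KMT2, KMT5, SETD, KDM, HDAC, SMARC and ARID families, CHD and BRD genes with a 1-digit number, the Polycomb repressive complex 2 (PRC2) genes EZH1, EZH2, EED, SUZ12 and JARID2, and DOT1L, EP300 and CREBBP. Of 97 protein-coding genes that these names cover, 80 had at least 1 transcript in the deposited tables, against 11851 genes in the tables as a whole. Those 80 genes account for 181 of 21537 listed transcripts. The listed members are 14 histone methyltransferases, 17 demethylases, 5 PRC2 genes, 8 deacetylases, 7 acetyltransferase and bromodomain genes, 20 SMARC and ARID genes and 9 CHD genes. For 1 of them, on chromosome Y, no value is given.

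Poly-A RNA was sequenced from PGP1, an established human induced pluripotent stem cell (iPSC) line, through directed differentiation to beating cardiomyocytes. The 15 wild-type libraries come from 5 stages with 3 libraries each: iPSCs, then mesoderm, written M, then the cardiac mesoderm or CMes stage, then cardiac progenitors, written CP, and last the cardiomyocytes or CMs. A further 6 libraries are CMs of the genotype UBE2B-/-, 3 each of the lines UBE2B-/- strain 1 and UBE2B-/- strain 2 (UBE2B-/-1 and UBE2B-/-2 below). Both lines were derived from PGP1 as clones in separate editing experiments, so each line is 1 clone. The cells of all 9 CM libraries were enriched for cardiomyocytes with lactate, and the UBE2B-/- cells that were sequenced were beating. Replicates are plates begun at different times. UBE2B is the ubiquitin-conjugating enzyme that, with the ligases RNF20 and RNF40, places a single ubiquitin on histone H2B.

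Histone methyltransferases of the KMT2 and SETD1 families methylate histone H3 at lysine 4, SETD2 methylates lysine 36 and DOT1L lysine 79, and methylation by the COMPASS enzymes and by DOT1L is helped by ubiquitin on H2B. PRC2 methylates lysine 27, a mark of repressed developmental genes, which KDM6A and KDM6B remove. Some of the SMARC and ARID proteins are subunits of the SWI/SNF (BAF) complexes, which move nucleosomes and change subunits as cells mature. Others, such as SMARCA1 and ARID5B, are not. In the heart, SMARCD3 (BAF60c) is the SWI/SNF subunit best known for cardiac differentiation, and class IIa deacetylases (HDAC4, HDAC5, HDAC7 and HDAC9) are known to hold the transcription factor MEF2 in check.

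The tables hold 1 row per transcript and comparison, from the authors' Wald test in Sleuth, with only transcripts at a q-value (Benjamini-Hochberg over all transcripts tested) of at most 0.05 listed. A transcript is listed below if it has such a row, and called if its effect b on the natural-log scale is also at least 0.585 in size, which is 0.84 on the log2 scale or 1.79-fold. Changes are given on the log2 scale ± the standard error of that fit. Levels are group means of estimated counts of 3 libraries, not corrected for transcript length, and all are put on the scale of the CP to CM comparison. The spread is the standard deviation (SD) between replicates on the log2 scale, pooled over the groups of a comparison. Values of single libraries were not analysed here and the depth per library is unknown. In bulk RNA, fewer cells of a type and less RNA per cell cannot be told apart.

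UBE2B itself was listed against wild type for UBE2B-/-1 only, as ENST00000499038.2 alone, for which the annotation defines no coding sequence (−1.91 ± 0.53, q = 0.0113). For UBE2B-/-2 no UBE2B transcript was listed. Of 8 cardiomyocyte markers all 8 were called higher from CP to CM, and of 6 pluripotent markers 5 were called lower. Of 7 cycling markers, 6 were called lower in that step, beside the falls of members described below, and their part in those falls was not tested. Other lists moved in that step too: 5 of 7 mesenchymal genes were called lower and 2 higher (COL1A1 in both), with a summed level of 53991 at CP and 12572 in CMs. Lower calls were also made for 4 of 6 endoderm and epithelial genes (8640.5 to 2069.6) and 2 of 4 endothelial genes (8056 to 859), and 4 of 4 smooth muscle genes were higher (10173 to 32105).

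From iPSC to M, 12 member transcripts of 6 genes were called higher and 2 of 2 genes lower. The members with a call make up 6.19% and 2.06% of the 97 genes, beside 3.1% higher and 4.17% lower among all 20020 protein-coding genes. Over all 68446 transcripts tested, 1.24% were called higher and 1.62% lower. SMARCA2, an ATPase of SWI/SNF, accounted for 5 of the 12 transcripts. The others belonged to KDM6B, KDM4D, SETD4, EZH2 and CHD3.

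From M to CMes, 18 member transcripts of 13 genes were called higher and 19 of 7 genes lower, which is 13.4% and 7.22% of the member genes. Among all protein-coding genes 8.9% had a transcript called higher and 6.52% one called lower, and among all transcripts tested the shares were 3.81% and 2.65%. Of the 19 transcripts that fell, 12 were of SMARCA2. From CMes to CP, 17 transcripts of 11 genes were called higher and 5 of 5 genes lower, 11.3% and 5.15% of the member genes beside 8.28% and 6.87% of all genes (3.8% and 2.63% of transcripts tested). In these 3 steps the lower calls of members lay near or under the share for all genes.

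The last step, CP to CM, held more calls than any other single comparison. In it 35 member transcripts of 21 genes were called higher and 38 of 29 genes lower, with 3 genes in both. That is 21.6% and 29.9% of the member genes, against 16.8% and 14.9% of all protein-coding genes (8.25% and 6.99% of transcripts tested). The median change of the 96 member transcripts listed in this step was −0.58, while that of all listed transcripts was 0.63. Member genes are longer than most, with a median of 64.0 kb over the 97 genes and 27.4 kb over all protein-coding genes. The shares were not matched for length or for expression, and no test of the difference in shares was made. The map of changes by gene shows this step as the column with the most calls. Neighbouring steps share the 3 libraries of the stage between them.

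**Figure D1:**
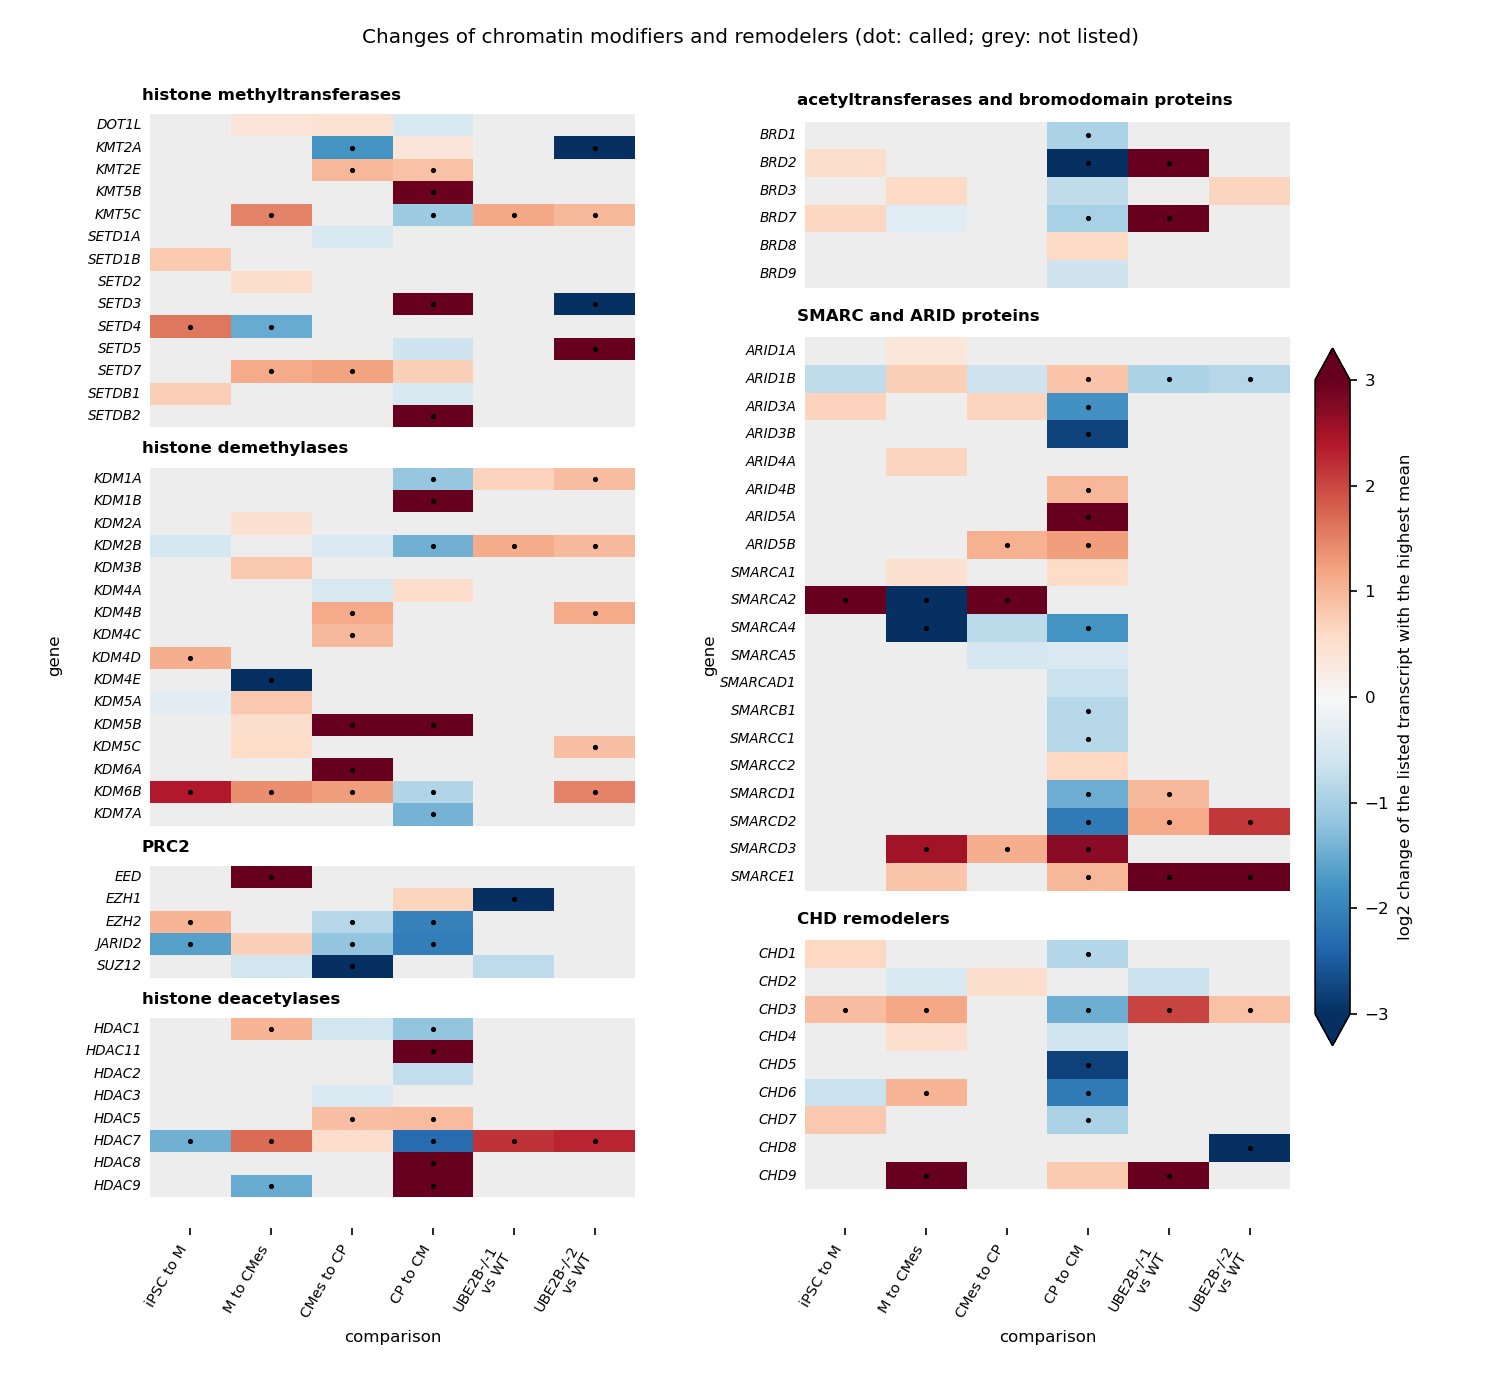
Log2 change of the member genes described here (rows, by role) in each of the 6 comparisons (columns), by its listed transcript with the highest mean; red is higher in the later stage or in the UBE2B-/- line, blue lower, colours end at 3, dots mark called transcripts and grey means not listed. The CP to CM column is the fullest, and most listed UBE2B-/- cells are red. Over all its transcripts this step had 73 called, while the map draws 1 transcript per gene.

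Among the PRC2 genes, JARID2, the subunit that guides PRC2 to its targets (chr6:15246069-15522042), fell in all but 1 step. Its transcript ENST00000341776.7 stood at 11654 estimated counts in iPSCs, 3706 at M, 6061 at CMes, 2652 at CP and 632 in CMs. The replicate SD was 0.16 to 0.26 on the log2 scale, so the levels of neighbouring stages lay far apart for their spread. The changes were −1.65 ± 0.13 from iPSC to M (q = 1.76e-32), 0.71 ± 0.18 from M to CMes, which was listed but under the limit for a call, −1.19 ± 0.21 from CMes to CP (q = 6.3e-07) and −2.07 ± 0.16 from CP to CM (q = 5.51e-37).

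EZH2, the main methyltransferase of PRC2, was called higher from iPSC to M (1.01 ± 0.25, q = 0.00223) and lower from CMes to CP (−0.85 ± 0.22, q = 0.00209), both by ENST00000460911.5, which went from 359.7 to 725 and from 764 to 423 estimated counts. From CP to CM its nonsense-mediated decay transcript ENST00000492143.5 fell from 131 to 31.7 (−2.03 ± 0.48, q = 0.000338). The paralog EZH1 rose over the same step from 416 to 657 (ENST00000428826.7, 0.66 ± 0.18, q = 0.0026), under the limit for a call. The pair of EZH2 transcripts listed from CMes to CP differs in a short coding stretch. ENST00000460911.5 has 27 bases at chr7:148846470-148846496 (GRCh38, minus strand) that ENST00000483967.5 lacks, so that the proteins have 746 and 737 residues. The stretch is shown in capitals with 15 bases of the joined exons on each side in lower case.
EZH2 stretch: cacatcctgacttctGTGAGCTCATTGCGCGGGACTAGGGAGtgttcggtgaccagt
Both forms fell by a like amount, −0.85 ± 0.22 with the stretch and −0.83 ± 0.26 without it, the latter under the limit for a call. The other PRC2 calls were low-level transcripts. A coding transcript of EED stood at 0 at M and 16.1 at CMes, and a retained-intron transcript of SUZ12 at 24.0 at CMes and 0 at CP. The main SUZ12 transcript ENST00000322652.10 was listed from M to CMes (1131 to 756, −0.58 ± 0.15) without a call.

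Of the demethylases, KDM6B, which removes methyl groups from lysine 27 of histone H3 (chr17:7834217-7854796), rose through 3 steps and then fell. ENST00000254846.9 stood at 124 estimated counts in iPSCs, 659.6 at M, 1736 at CMes, 4162 at CP and 2213 in CMs, with a replicate SD of 0.12 to 0.25. Its changes were 2.40 ± 0.18 (q = 3e-37), 1.40 ± 0.20 (q = 2.48e-10), 1.26 ± 0.21 (q = 3.55e-08) and −0.91 ± 0.14 (q = 7.93e-10). It was the only demethylase called in all 4 steps. Over the steps in which KDM6B rose, JARID2 fell, rose and fell, as the plot of levels by stage shows.

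KDM1A (LSD1), which takes methyl groups off lysine 4 and is a subunit of corepressor complexes, fell from CP to CM in both of its listed transcripts. ENST00000356634.7 went from 4858 to 2174 (−1.16 ± 0.14, q = 5.45e-15, replicate SD 0.05) and ENST00000400181.8 from 1781 to 737 (−1.27 ± 0.15, q = 1.02e-14, replicate SD 0.15). The longer of these transcripts carries 2 exons that the shorter lacks, at chr1:23044427-23044486 (60 bases) and chr1:23066060-23066071 (12 bases) on the plus strand of GRCh38, which lengthen the protein from 852 to 876 residues. They are shown because only the longer form was listed in UBE2B-/- CMs. Capitals mark the exon and lower case 15 bases of the exon on each side.
KDM1A 60-base exon: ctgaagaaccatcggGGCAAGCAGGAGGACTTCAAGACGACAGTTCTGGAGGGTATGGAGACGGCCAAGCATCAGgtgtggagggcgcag
KDM1A 12-base exon: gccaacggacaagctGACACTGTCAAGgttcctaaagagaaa
The 12-base exon is best known from neurons. The paralog KDM1B went the other way from CP to CM, from 57.3 to 485 (ENST00000650836.1, 3.07 ± 0.50, q = 2.25e-08).

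KDM2B, which binds unmethylated CpG islands and recruits a form of Polycomb repressive complex 1, was listed lower from iPSC to M and from CMes to CP and was called lower from CP to CM. Its transcript ENST00000377071.9 stood at 2223 in iPSCs, 1537 at M, 1891 at CMes, 1409 at CP and 515 in CMs, with a last change of −1.45 ± 0.16 (q = 7.77e-17). KDM7A also fell in that step, from 1487 to 559 (−1.41 ± 0.20, q = 5.41e-11). KDM4B and KDM4C, demethylases of lysine 9, were called higher from CMes to CP (551 to 1218, and 334 to 656). KDM4D was called higher from iPSC to M (65.8 to 140.5, 1.09 ± 0.34, q = 0.0365). KDM4E, a gene of 2.34 kb, fell from 83.6 at M to 0.637 at CMes (−6.28 ± 1.05, q = 1.21e-07), a level under 3 estimated counts where the size of a change depends on the pseudocount of 0.5. The called transcripts of KDM5B and KDM6A were likewise at or near 0 in 1 of their groups. KDM6A (ENST00000414389.5, which is not in the annotation used) stood at 0 at CMes and 192 at CP (8.76 ± 1.67, q = 4.84e-06). Its replicate SD of 0.13 overstates the precision, since a group at 0 adds little or no spread.

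Among the methyltransferases, SETD7, a monomethyltransferase of lysine 4 of histone H3 and of other proteins (chr4:139495941-139606699), rose at each of the last 3 steps. It stood at 378 at M, 828 at CMes, 1923 at CP and 3161 in CMs (ENST00000274031.7, replicate SD 0.14 to 0.22). The changes up to CP were called (1.13 ± 0.16, q = 9.15e-11, and 1.21 ± 0.12, q = 6.06e-23) and the last was listed only (0.72 ± 0.18, q = 0.000693). SETD4 showed a peak at M, with 137 in iPSCs, 414 at M and 146 at CMes (ENST00000332131.8, q = 1.48e-07 for the rise and 1.91e-08 for the fall, replicate SD 0.32 and 0.23).

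KMT5B and KMT5C, the enzymes that carry lysine 20 of histone H4 from mono- to di- and trimethylation, moved in opposite directions from CP to CM. KMT5B rose from 87.1 to 681 (ENST00000304363.9, 2.96 ± 0.27, q = 4.31e-26), the largest z of any methyltransferase in this step. KMT5C fell from 309 to 145 (ENST00000255613.8, −1.09 ± 0.25, q = 0.000163), after a rise from 121 to 342 between M and CMes (1.49 ± 0.41, q = 0.00478). KMT2E, a catalytically inactive relative of the KMT2 enzymes, was called higher from CMes to CP in 2 transcripts and from CP to CM in another (ENST00000311117.7, 1304 to 2398, 0.88 ± 0.32, q = 0.0382). KMT2B, KMT2C and KMT2D were listed in no comparison, and the main KMT2A transcript gave 0.38 ± 0.15 from CP to CM, under the limit for a call. A low KMT2A transcript, ENST00000529852.2, fell from 58.6 to 16.7 from CMes to CP (−1.79 ± 0.59, q = 0.0253), and a retained-intron transcript of it stood at 0 at CP and 16.4 in CMs.

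DOT1L had a call for a shorter transcript only. The main DOT1L transcript ENST00000398665.8 stood at 1267 at M, 1657 at CMes, 2261 at CP and 1593 in CMs (0.39 ± 0.12, 0.45 ± 0.12 and −0.51 ± 0.13), listed in each of these 3 steps and called in none. A shorter DOT1L transcript, ENST00000457590.2, fell from 291 to 33.8 from CP to CM (−3.09 ± 0.62, q = 1.25e-05). SETD1A was listed once (1384 to 996 from CMes to CP, −0.47 ± 0.11), SETD1B once (437 to 756 from iPSC to M, 0.79 ± 0.21) and SETD2 once (1642 to 2349 from M to CMes, 0.52 ± 0.15), all without a call. DOT1L, SETD1A, SETD1B and SETD2 were not listed in either UBE2B-/- line, while the retained-intron transcript ENST00000525408.2 of the COMPASS enzyme KMT2A was called lower in UBE2B-/-2 (−5.28 ± 1.60, q = 0.0265). Its level was 16.4 in wild-type CMs, 8.62 in UBE2B-/-1 as solved from the fit, and 0 in UBE2B-/-2.

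The deacetylases moved in both directions from CP to CM. Of the class I enzymes, HDAC1 fell from 2485 to 1101 (ENST00000373548.8, −1.17 ± 0.41, q = 0.0246) and HDAC2 went from 6866 to 4146 (ENST00000368632.6, −0.73 ± 0.16, q = 4.1e-05), the latter under the limit for a call. Of the class IIa enzymes HDAC5 and HDAC9 rose and HDAC7 fell. HDAC9 (chr7:18086949-19002416) stood at 129 at M, 45.2 at CMes, 31.1 at CP and 393 in CMs (ENST00000406451.8), a last change of 3.64 ± 0.34 (q = 2.35e-24). In all, 7 HDAC9 transcripts were called higher in this step and none lower, 6 of the 7 with between 25.3 and 261 estimated counts in CMs.

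HDAC5 was called higher from CMes to CP (ENST00000225983.10, 193 to 359, 0.89 ± 0.20, q = 0.000128) and from CP to CM (ENST00000586802.5, 1085 to 2089, 0.94 ± 0.14, q = 1.19e-10, replicate SD 0.06). HDAC7 (chr12:47782722-47833132) stood at 847 at CMes, 1244 at CP and 249 in CMs (ENST00000080059.12), with a fall of −2.32 ± 0.28 (q = 7.53e-15). A retained-intron transcript of HDAC7 was called lower from iPSC to M (178 to 65.7) and higher from M to CMes (65.7 to 214). Per kb of transcript and summed over the transcripts listed in this step, HDAC5 went from 299 to 684 estimated counts, HDAC7 from 295 to 59.1 and HDAC9 from 6.69 to 216. These sums leave out transcripts not listed from CP to CM, such as HDAC5 ENST00000225983.10, so they do not give the order of the genes. The class I enzyme HDAC8 and the class IV enzyme HDAC11 had called transcripts that were at 0 at CP and at 18.5 to 28.9 in CMs. HDAC4, HDAC6 and HDAC10 were listed in no comparison.

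**Figure D2:**
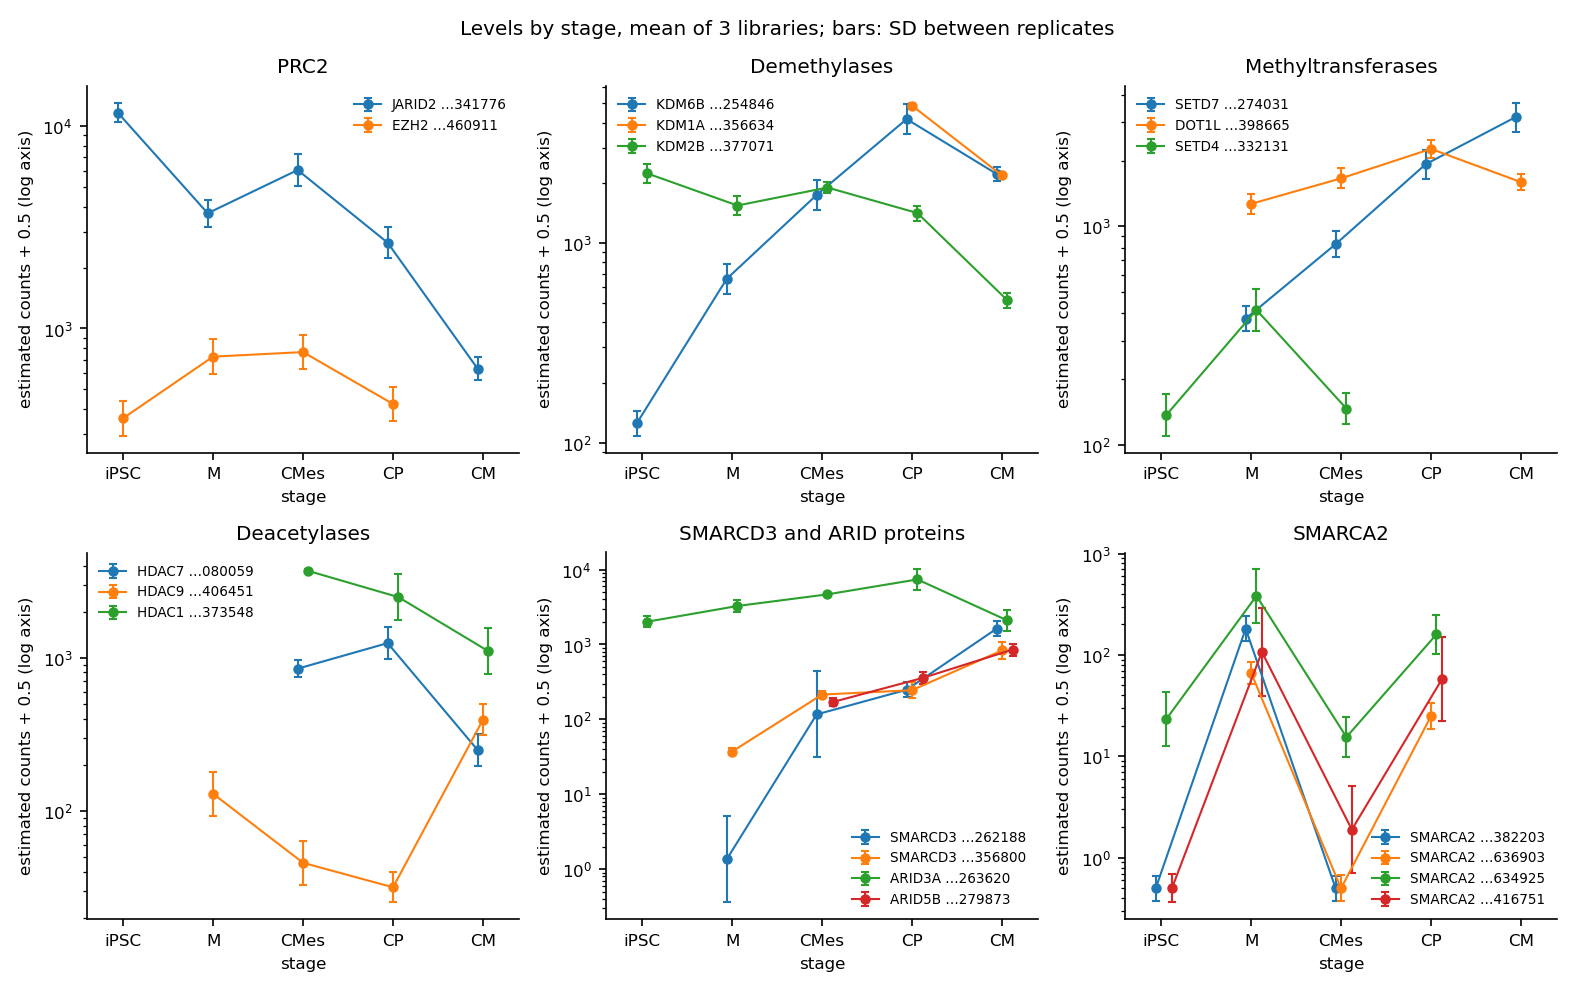
Estimated counts plus 0.5 (log axis) of selected member transcripts by stage. Each point is the log-scale mean of 3 libraries and each bar the SD between replicates, shown at the stages of comparisons in which the transcript was listed. KDM6B and SETD7 climb from M to CP, JARID2 drops to 632 in CMs, HDAC7 and HDAC9 cross between CP and CM, and the 4 SMARCA2 transcripts are at their lowest at CMes or in iPSCs.

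SMARCD3 (chr7:151238764-151277896) rose in each step in which it was listed. ENST00000262188.12 stood at 0.852 at M, 116 at CMes, 248 at CP and 1625 in CMs, and ENST00000356800.6 at 36.7, 214, 245 and 833. The changes of the first were 6.49 ± 1.56 (q = 0.000768), 1.09 ± 0.30 (q = 0.00464) and 2.71 ± 0.27 (q = 1.98e-21). The first rise started from a level under 3 counts and had a replicate SD of 1.91, against 0.33 in the later steps. The second transcript gave 2.53 ± 0.33 from M to CMes (q = 1.15e-12, replicate SD 0.16).

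SMARCD1 and SMARCD2, the alternative subunits at the same place in SWI/SNF, fell from CP to CM while SMARCD3 rose. SMARCD1 fell in 3 transcripts by −1.46 to −1.60, from 1693 to 613, 1104 to 401 and 967 to 319. SMARCD2 fell from 1427 to 328 (ENST00000613943.4, −2.12 ± 0.20, q = 8.01e-25), by a transcript that is not in the annotation used. Per kb and summed over the transcripts listed in this step only, SMARCD1 went from 1318 to 463 and SMARCD3 from 277 to 1351. ENST00000381513.8 of SMARCD1 lacks 1 coding exon of 123 bases at chr12:50096850-50096972 (plus strand, GRCh38) that ENST00000394963.8 has, which gives proteins of 474 and 515 residues. It is printed, in capitals between lower-case flanks, because the form without it was the SMARCD1 transcript called in UBE2B-/-1.
SMARCD1 exon: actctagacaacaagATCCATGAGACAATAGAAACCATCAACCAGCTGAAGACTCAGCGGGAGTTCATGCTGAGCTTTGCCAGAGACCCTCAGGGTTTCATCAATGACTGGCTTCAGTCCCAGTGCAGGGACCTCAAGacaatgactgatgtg
From CP to CM the form with the exon changed by −1.47 ± 0.22 and the form without it by −1.46 ± 0.28.

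Other pairs of SWI/SNF and ISWI genes were also set apart in this step. SMARCC1, the core scaffold, fell from 9459 to 5201 (ENST00000254480.10, −0.86 ± 0.16, q = 1.07e-06) and its paralog SMARCC2 rose from 217 to 685 (ENST00000347471.8, 1.66 ± 0.29, q = 2.34e-07), while the most abundant SMARCC2 transcript rose by 0.62 ± 0.14, under the limit. Per kb and over the transcripts listed in this step only, SMARCC1 went from 2053 to 1043 and SMARCC2 from 301 to 554. As transcripts not listed are left out, these sums do not give the order of the pair. The ATPase SMARCA4 fell in 2 transcripts (2110.1 to 608, and 1183 to 621) after a fall of another from M to CMes (ENST00000643296.1, 262 to 7.37, replicate SD 2.01), and SMARCA2 was not listed from CP to CM. SMARCA1, an ATPase of ISWI complexes, rose while its paralog SMARCA5 was slightly lower. ENST00000371123.5 of SMARCA1 rose from 257 to 1476 (2.52 ± 0.42, q = 7.77e-08) and ENST00000371122.8 from 738 to 1094 (0.57 ± 0.18, q = 0.0104), while SMARCA5 went from 6934 to 5094 (−0.44 ± 0.15). The SMARCA1 transcript that rose less includes a stretch of 36 coding bases at chrX:129493040-129493075 (minus strand, GRCh38) that the other lacks, shown in capitals.
SMARCA1 stretch: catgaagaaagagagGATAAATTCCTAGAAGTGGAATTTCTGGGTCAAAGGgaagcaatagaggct
The proteins have 1054 residues with it and 1058 without it, since the other transcript holds further bases elsewhere. The difference between the changes of these transcripts was not tested.

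**Figure D3:**
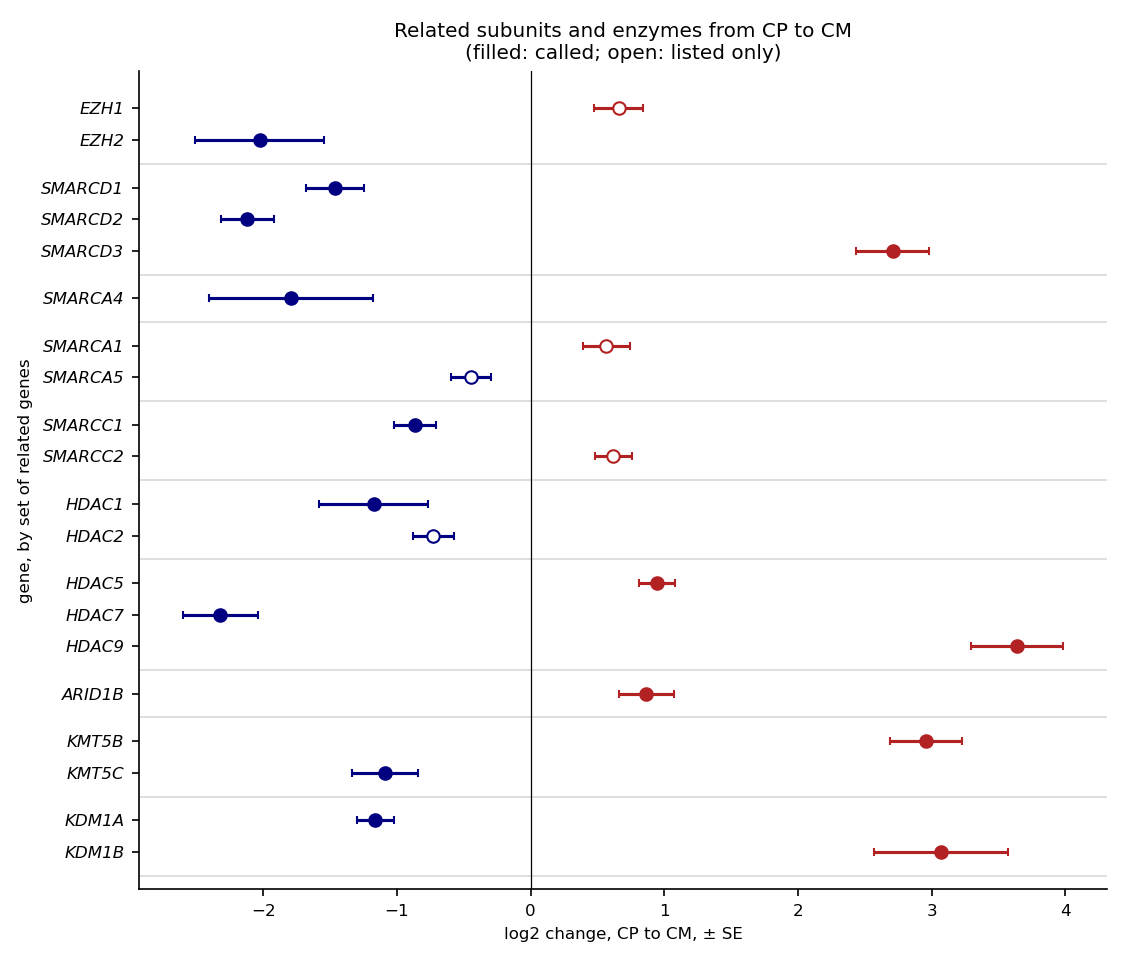
Log2 change from CP to CM, ± SE (x axis), of the listed transcript with the highest mean of related members (y axis, sets divided by grey lines); filled points were called and open points listed only. SMARCD3, HDAC5, HDAC9, KMT5B and KDM1B lie right of 0 and their relatives SMARCD1, SMARCD2, HDAC7, KMT5C and KDM1A left of it; the KMT5 and KDM1 pairs were chosen after their values were seen.

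SMARCA2 (chr9:1980290-2193624) gave the largest number of transcripts of any member in the early steps, and they came and went together. From iPSC to M 5 of its transcripts were called higher, from M to CMes 12 lower, and from CMes to CP 5 higher. ENST00000382203.5 stood at 0 in iPSCs, 181 at M and 0 at CMes (8.57 ± 1.06, then −8.67 ± 1.07). Its replicate SD was 0.41, to which the groups at 0 add little or no spread. ENST00000634925.1, annotated without a defined coding sequence, was above the floor of 3 counts at each stage, with 23.0 in iPSCs, 382 at M, 15 at CMes and 159 at CP. Its changes were 4.03 ± 0.96 (q = 0.00134), −4.63 ± 0.86 (q = 3.39e-06) and 3.37 ± 0.89 (q = 0.00242). The most abundant of the transcripts at M, ENST00000382194.6, ENST00000349721.8 and ENST00000357248.8 with 1257, 998 and 495, had replicate SDs of 2.42, 2.79 and 3.24, so their libraries differed by several fold within a stage. Because transcripts of a gene share reads, these 12 are not independent of one another.

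Of the ARID genes, ARID3A was highest at CP: 2016 in iPSCs, 3264 at M, 4668 at CMes, 7385 at CP and 2089 in CMs (ENST00000263620.8, last change −1.82 ± 0.37, q = 1.61e-05). The earlier changes were under the limit for a call or, from M to CMes, not listed. ARID3B fell in the same step from 3282 to 475 (−2.79 ± 0.75, q = 0.00181, replicate SD 0.81). ARID5B, a cofactor of a lysine 9 demethylase, rose from 170.0 at CMes to 358 at CP and 855 in CMs (ENST00000279873.12, 1.07 ± 0.16 with q = 2.14e-09, then 1.26 ± 0.22 with q = 1.35e-07). ARID1A, the largest subunit of canonical SWI/SNF, was listed from M to CMes only, with 0.37 ± 0.12 for its main transcript and a call for 1 low transcript (0 to 38.5).

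ARID1B, SMARCB1 and SMARCE1 had called transcripts in both directions from CP to CM. Of ARID1B, ENST00000414678.7 rose from 608 to 1109 (0.87 ± 0.21, q = 0.000297) and ENST00000350026.10 fell from 323 to near 0 (−9.33 ± 1.42, q = 1.53e-09). Of SMARCB1, ENST00000618915.3 rose from 463 to 1008 (1.12 ± 0.20) and ENST00000631333.2 fell from 2151 to 1183 (−0.86 ± 0.14). Neither SMARCB1 transcript is in the annotation used, so their reads may be split with other entries of the gene and the values are uncertain. Of SMARCE1, ENST00000348513.12 rose from 256 to 509.9 (0.99 ± 0.20) and ENST00000474246.2 from 10.2 to 50.6 (2.25 ± 0.76), while ENST00000582955.6 fell from 58.7 to 0 (−6.89 ± 1.95, q = 0.00358).

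Calls of the CHD remodelers were higher in the early steps and mostly lower in the last. From M to CMes CHD3, CHD4, CHD6 and CHD9 had called transcripts, all higher. From CP to CM CHD1, CHD3, CHD5, CHD6 and CHD7 had called transcripts that were lower, while 1 of CHD4 was higher. The lower calls of CHD3 (ENST00000481999.1, retained intron, 179 to 64.5), CHD5 (84.8 to 11.8) and CHD6 (ENST00000480022.1, 59.7 to 13.3) were of low transcripts. The more abundant CHD3 and CHD6 transcripts described next were not listed from CP to CM, so no turn is shown for them. CHD3, an ATPase of the NuRD complex, went from 408 in iPSCs to 779.8 at M and 1749 at CMes (ENST00000380358.8, 0.93 ± 0.29 with q = 0.027, then 1.16 ± 0.20 with q = 4.04e-07). CHD6 rose from 1307 at M to 2655 at CMes (1.02 ± 0.12, q = 1.49e-15). CHD7, mutated in CHARGE syndrome, went from 2733 to 4785 from iPSC to M without a call and fell from 5123 to 2659.8 from CP to CM (−0.95 ± 0.14, q = 2.21e-10). CHD4, the main NuRD ATPase, had 3 listed transcripts from M to CMes, of which 1 was called (872 to 1623, 0.90 ± 0.23). From CP to CM its abundant transcript went from 4056 to 2667 (−0.60 ± 0.18, under the limit) and a low transcript rose from 0.687 to 101.

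Over the 4 steps the bromodomain genes had calls in the lower direction only, 1 from M to CMes (BRD7 ENST00000562383.6, 123 to 51.7) and 5 from CP to CM. In the last step BRD7, a subunit of the PBAF form of SWI/SNF, fell from 2591 to 1319.7 (ENST00000394689.2, −0.97 ± 0.13, q = 7.34e-12), and BRD1 fell from 871 to 452 (−0.95 ± 0.36, q = 0.0459). BRD9 and BRD2 had calls for transcripts with fewer than 80 counts. The acetyltransferases EP300 and CREBBP were listed in no comparison.

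Other genes of the same complexes, 82 in all from lists of partner subunits and related writers, were called in like numbers in both directions from CP to CM, 27 genes higher and 23 lower with 6 in both. These are 32.9% and 28.0% of the 82, beside the 16.8% and 14.9% of all protein-coding genes given above. By complex, 4 of 9 COMPASS partners were lower and 1 higher (ASH2L by −2.21 ± 0.19, WDR5 by −0.85 ± 0.14), 4 of 7 NuRD partners lower and 2 higher, and 6 of 15 genes of Polycomb repressive complex 1 higher and 1 lower. Of the other SWI/SNF subunits 4 of 13 were called higher and 3 lower, PHF10 among both. DPF3, a muscle-enriched subunit, was among those that rose (2.48 ± 0.42, q = 6.71e-08). Of 4 DOT1L partners MLLT3 and MLLT6 were called higher, and of 6 PRC2 partners MTF2 was called lower. Of 8 genes of deacetylase corepressors 3 were called higher and 3 lower. In the group of 20 other writers, 9 were called higher and 7 lower, with the muscle methyltransferase SMYD1 at 5.41 ± 0.33.

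In UBE2B-/-1 CMs, 18 member transcripts of 12 genes were called higher than in wild-type CMs and 2 of 2 genes lower. That is 12.4% and 2.06% of member genes, against 5.91% and 4.12% of all protein-coding genes (2.18% and 1.72% of 65457 transcripts tested). In UBE2B-/-2 CMs, 16 transcripts of 12 genes were called higher and 4 of 4 genes lower, 12.4% and 4.12% of member genes against 6.49% and 3.54% of all genes (2.46% and 1.53% of transcripts). Both lines together shared 7 higher transcripts of 6 genes and 1 lower transcript, 6.19% and 1.03% of member genes beside 4.24% and 2.12% of all genes (1.52% and 0.909% of transcripts). The lines are set against the same 3 wild-type libraries. At a q-value limit of 0.01 the higher counts were 5 in UBE2B-/-1, 8 in UBE2B-/-2 and 3 in both. With at least 3 estimated counts in both groups, 10 of the 18 in UBE2B-/-1 were left.

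HDAC7 had the smallest q-value of the members in either line. ENST00000080059.12 stood at 249 in wild-type CMs, 1113 in UBE2B-/-1 and 1221 in UBE2B-/-2, with a replicate SD of 0.42, and its changes were 2.16 ± 0.34 (q = 2.12e-07) and 2.29 ± 0.34 (q = 2.1e-08). A second HDAC7 transcript, ENST00000417902.5, was at 0.653 in wild type and 21.1 in each line (4.31 ± 1.34 in both). SMARCD2 rose in the coding transcript ENST00000448276.6 from 158 to 699 and 694 (2.14 ± 0.40, q = 2.39e-05, and 2.13 ± 0.40, q = 2.49e-05). SMARCE1 ENST00000582955.6 stood at 0 in wild-type CMs and at 64.6 and 142 in the lines, with a replicate SD of 0.20 (7.23 ± 1.48, q = 0.000171, and 8.36 ± 1.48, q = 5.39e-06).

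Other changes were shared by KMT5C, KDM2B, CHD3 and ARID1B. KMT5C ENST00000255613.8 stood at 145 in wild type and 322 and 291 in the lines (1.15 ± 0.29, q = 0.00366, and 1.01 ± 0.29, q = 0.0159). KDM2B ENST00000542973.5 went from 149.6 to 321 and 293 (1.10 ± 0.31, q = 0.014, and 0.97 ± 0.31, q = 0.0413). The retained-intron transcript ENST00000481999.1 of CHD3 went from 64.5 to 263 and 158 (2.02 ± 0.39, q = 3.87e-05, and 1.29 ± 0.39, q = 0.0241). ARID1B ENST00000414678.7 was the single member transcript called lower in both, from 1109 to 577 and 614 (−0.94 ± 0.26, q = 0.0117, and −0.85 ± 0.26, q = 0.028).

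KDM1A was listed in both lines with a smaller change. The form of KDM1A with the 60-base and 12-base exons stood at 737 in wild type and 1200 and 1392 in the lines, called in UBE2B-/-2 (0.92 ± 0.21, q = 0.000942) and under the limit in UBE2B-/-1 (0.70 ± 0.21, q = 0.0224). Among the 10 member transcripts listed for both lines, a difference between the lines passed the test for none: the smallest unadjusted p was 0.0588, for CHD3, and 0 of 10 had an unadjusted p under 0.05 (normal test of the difference of the 2 effects). Of all 1992 transcripts listed for both lines, 0 passed this test at an adjusted p of 0.05. Only transcripts with a q-value of at most 0.05 against wild type in both lines could enter it. That filter leaves out transcripts changed in 1 line only, so the test cannot show that the lines are alike.

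**Figure D4:**
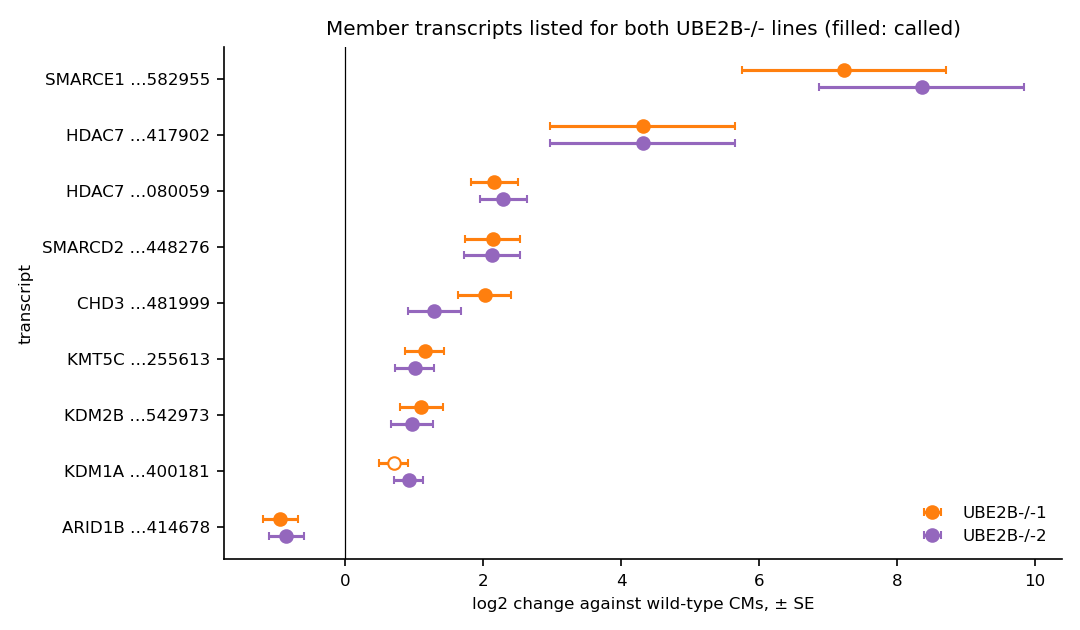
Log2 change against wild-type CMs, ± SE (x axis), of 9 member transcripts listed for both UBE2B-/- lines (y axis); orange is UBE2B-/-1, purple UBE2B-/-2, filled points were called. ARID1B is the single transcript left of 0, and for each transcript the bars of the lines overlap.

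A further 26 member rows were listed for 1 line only. For 7 of them the change in the other line could be solved from the variance columns of the fit with the help of the CP to CM comparison. Both lines share the wild-type libraries, and the difference between lines was not tested for these rows. KDM6B ENST00000448097.6 was called in UBE2B-/-2 (1.49 ± 0.39, q = 0.0077) and solved as 0.87 in UBE2B-/-1. BRD3 was listed in UBE2B-/-2 at 0.66 ± 0.19 and solved as 0.55 in UBE2B-/-1. SMARCD1 ENST00000381513.8, the form without the 123-base exon, was called in UBE2B-/-1 (0.97 ± 0.31, q = 0.0412) and solved as 0.61 in UBE2B-/-2. The other SMARCD2 transcript, ENST00000613943.4, gave 1.14 ± 0.32 and a solved 0.70. For SETD3, a methyltransferase of actin, only ENST00000329331.7 was listed. That transcript stood at 69.1 in wild type, a solved 3.77 in UBE2B-/-1 and 0.308 in UBE2B-/-2, where it was called (−6.55 ± 1.78, q = 0.00963). Its replicate SD was 1.87 and the level in UBE2B-/-2 lay under 3 estimated counts, so the values do not speak for the gene as a whole.

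Members called in UBE2B-/-2 alone, with the other line not solved, included KDM4B (1.14 ± 0.27, q = 0.00154), KDM5C (0.91 ± 0.25, q = 0.00996) and the main CHD3 transcript ENST00000380358.8 (0.87 ± 0.21, q = 0.00308). CHD8 ENST00000553870.2 was lower there (−6.29 ± 1.58, q = 0.00407). Members called in UBE2B-/-1 alone included EZH1 ENST00000415827.6 (−6.74 ± 2.06, q = 0.0292, replicate SD 2.21) and BRD7 ENST00000569774.6 (5.59 ± 1.69, q = 0.026), with single transcripts of CHD2 (1.43 ± 0.47) and CHD9 (4.46 ± 1.41). SUZ12 (−0.78 ± 0.23) and the main CHD2 transcript (−0.66 ± 0.19) were listed there without a call. ARID1B had calls in both directions in each line: beside the shared fall, ENST00000637741.1 was higher in UBE2B-/-1 (6.57 ± 2.03) and ENST00000635957.1 and ENST00000636930.1 in UBE2B-/-2 (6.53 ± 2.00 and 2.10 ± 0.69). BRD2 gave 4 rows with identical values in UBE2B-/-1 (5.59 ± 1.72, q = 0.0311, replicate SD 2.00). None of these 4 is in the primary annotation, their reads cannot be told apart, and the value is uncertain.

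The levels of these transcripts can be set beside those at CP, with the wild-type CM libraries common to both comparisons. HDAC7 stood at 1244 at CP, 249 in wild-type CMs, 1113 in UBE2B-/-1 and 1221 in UBE2B-/-2. KMT5C gave 309, 145, 322 and 291 in the same order and SMARCE1 ENST00000582955.6 58.7, 0, 64.6 and 142. In these 3 the lines lay closer to CP than to wild-type CMs. KDM1A, with 1781, 737, 1200 and 1392, and SMARCD2 ENST00000613943.4, with 1427, 328, 722 and 533, lay between. KDM6B ENST00000448097.6, with 496, 303, 554 and 848, lay above CP in both lines. CHD3 ENST00000481999.1, with 179, 64.5, 263 and 158, lay above CP in UBE2B-/-1 only. ARID1B ENST00000414678.7 was highest in wild-type CMs, with 608, 1109, 577 and 614, as were SETD3 ENST00000329331.7, with 0, 69.1, 3.77 and 0.308, and KMT2A ENST00000525408.2, with 0, 16.4, 8.62 and 0. The wild-type CM value enters both comparisons that chose these transcripts, so its place at one end of the order supports nothing by itself.

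**Figure D5:**
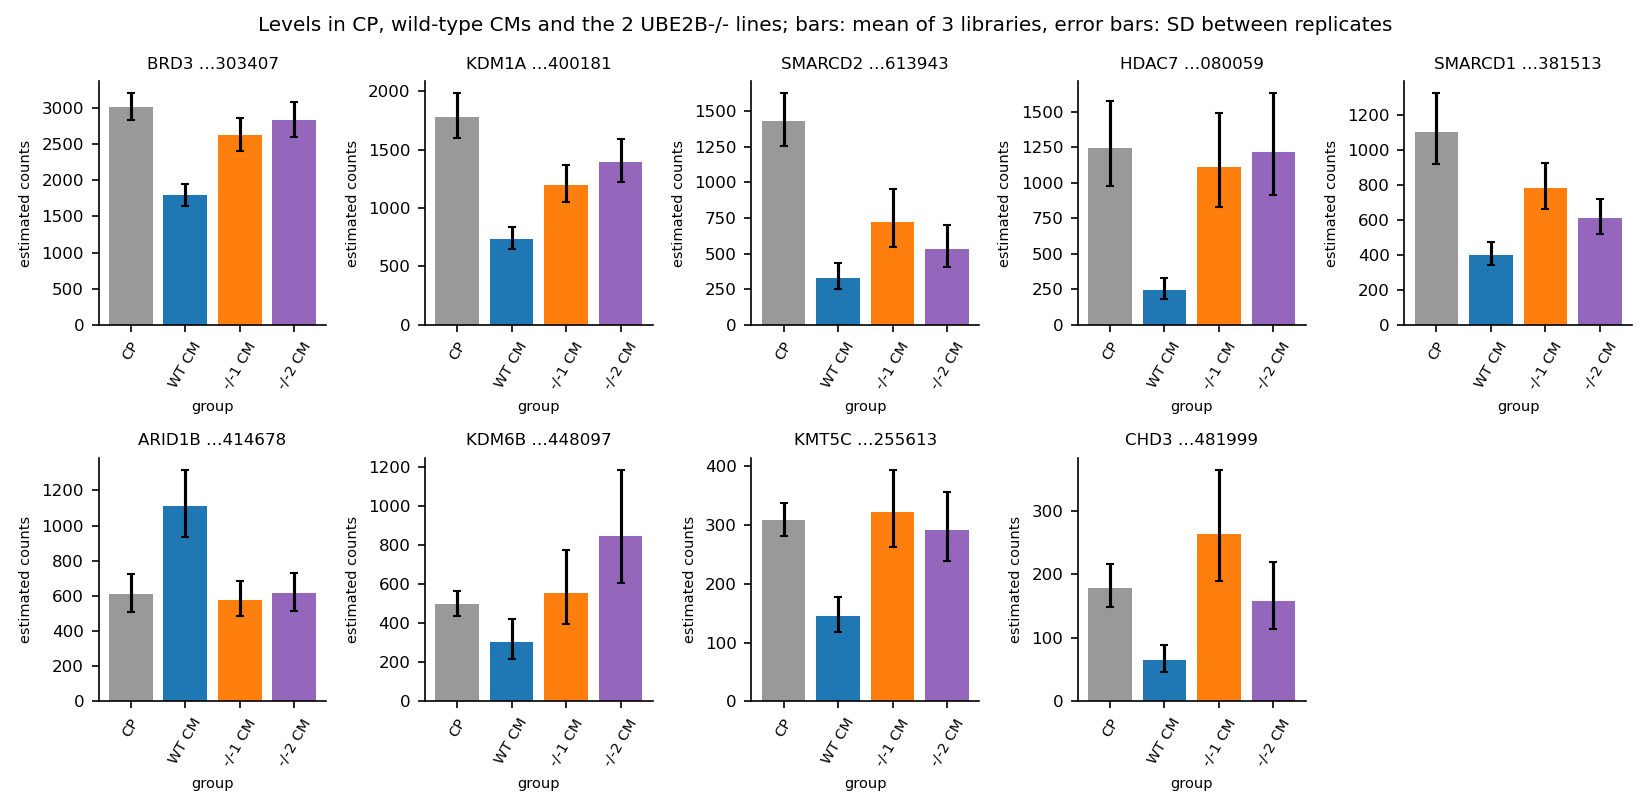
Estimated counts (y axis, from 0) of 9 member transcripts at CP, in wild-type CMs and in the CMs of each UBE2B-/- line. Bars are log-scale means of 3 libraries and error bars the SD between replicates. Shown are transcripts listed in both fits with at least 3 estimated counts in every group; as the fits share the wild-type CM libraries, the place of that bar is a description only (lowest in 8 panels, highest in ARID1B). For BRD3, SMARCD1, SMARCD2 and KDM6B, 1 line was solved from the fit and not listed.

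Markers of other cells moved with these differences. Of 8 cardiomyocyte markers, 5 were called lower in UBE2B-/-1 and 6 in UBE2B-/-2 and none higher, with troponin T gene TNNT2 at −1.48 ± 0.42 and −1.77 ± 0.42. Summed over the listed transcripts of 5 such genes, the level was 342535 in wild type and 61353 and 66130 in the lines. Of 7 mesenchymal markers 3 and 5 were called higher, COL3A1 by 3.51 ± 0.79 and 4.81 ± 0.79, and the sum over 2 genes listed for both lines was 8121 in wild type and 82589 and 215665 in the lines. None of 6 pluripotent or 7 cycling markers was listed in either line, 1 of 4 endothelial genes (KDR) was called higher in UBE2B-/-2, and 1 of 4 smooth muscle genes (CNN1) was lower in each. Of 6 endoderm and epithelial genes, KRT18 was called higher and KRT8 lower in UBE2B-/-1, and in UBE2B-/-2 KRT18 was higher, EPCAM lower and KRT8 both, with a sum over 2 genes of 4435 in wild type and 500.1 and 717 in the lines. The part of these cells in the member changes was not tested.

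Partner genes of the same complexes were called in both directions in the lines, 9 higher and 11 lower of 82 in UBE2B-/-1 (10.98% and 13.4%, beside 5.91% and 4.12% of all genes) and 8 higher and 8 lower in UBE2B-/-2 (9.76% each, beside 6.49% and 3.54%). MEN1, a subunit of KMT2 complexes, was higher in each (1.15 ± 0.26 and 1.02 ± 0.26), as were BICRA and BCL7C of SWI/SNF and GATAD2A of NuRD. SMYD1 (−1.44 ± 0.44 and −1.75 ± 0.44) and the acetyltransferase KAT2B (−1.37 ± 0.25 and −1.11 ± 0.25) were lower in each. The Polycomb gene CBX2 was higher (1.62 ± 0.41 and 1.23 ± 0.41) and PCGF5 lower (−1.56 ± 0.31 and −1.80 ± 0.31).

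Across comparisons, CHD3, HDAC7 and KDM6B had a call in 5 of the 6, KMT5C in 4, 11 members in 3, 19 in 2 and 29 in 1. A call of any transcript counted, so the calls of a gene can be of unlike transcripts, as for HDAC7 and CHD3. The same count over all protein-coding genes was not made, so these numbers do not set the members apart. Called member transcripts with at least 3 estimated counts in both groups changed by 0.86 to 4.70 on the log2 scale from CP to CM, with a median of 1.87 for those higher and 1.46 for those lower, beside 1.70 and 1.66 for all called transcripts with the same minimum. Of 35 called higher in that step, 42.9% were under 3 counts at CP, and of 38 called lower 13.2% were under 3 counts in CMs, against 28.0% and 30.6% of all called transcripts. Members called higher in UBE2B-/-1 and UBE2B-/-2 had a median GC content of 55.1% and 57.6%, beside 59.3% and 58.0% for all transcripts called higher. All transcripts called lower had a smaller median GC content in each line, 42.86% in UBE2B-/-1. For transcripts called in both lines the medians were 59.15% higher and 43.08% lower. GC content thus differed between the directions over all called transcripts. Its part in the member changes was not tested.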

How the data were processed

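After trimming (FASTX-Toolkit), the authors obtained estimated counts per transcript from Kallisto on hg38 and fitted these in Sleuth after adding 0.5 and taking the natural log. They deposited 6 tables with a p-value and q-value (Wald test), the effect b and mean on the natural log scale, and variance scores from that fit. No q-value in them exceeds 0.05. They contain 0 columns that give a value per sample, which leaves the depth unknown. These columns are the authors' own comparisons and were used because no other values were given.

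From them were computed log2 changes (b over the natural log of 2), group means, replicate SDs, the number tested, offsets between fits (SD at most 9.49e-05 on the natural-log scale) and the mean and difference of both lines, whose standard error is that of a single line times 0.866 for the mean. The recoveries were tested on simulated data. Transcripts were joined to GENCODE 44 (GRCh38) without the version, so printed versions may differ, and 79.2% to 100% of member rows matched. Named were, per role and comparison, the called gene of greatest absolute z, higher and lower, by its transcript with the highest mean, transcripts shared by both lines, genes called in both directions and a fixed list. Members and lists were chosen with earlier results of these data known. Python 3.11.15, pandas 2.3.3, numpy 2.4.6, scipy 1.17.1 and matplotlib 3.10.9 were used. Amino acid sequences were not used here. Values of 1 further member are not reported here.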

Additional observations from a re-analysis of the deposited data

How the results depend on the processing

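Each count of called member transcripts was repeated under 6 other settings, of which the last 2 were chosen after seeing the data. With a q-value limit of 0.01, 2 transcripts were lower from CMes to CP, 5 higher and 0 lower in UBE2B-/-1, 8 higher and 2 lower in UBE2B-/-2, and 3 higher and 0 lower in both lines. With the limit on b at ln(1.5), 22 were higher and 4 lower from iPSC to M, 8 lower from CMes to CP and 4 lower in UBE2B-/-1. With protein-coding transcripts only, 1 was lower from iPSC to M, 25 lower from CP to CM and 8 higher in UBE2B-/-1. With 1 transcript per gene, 6 were higher from iPSC to M, 10 higher and 5 lower from M to CMes, 11 higher from CMes to CP, 16 higher and 24 lower from CP to CM, 10 higher in UBE2B-/-1 and 4 higher in both lines. With at least 3 estimated counts in both groups, 7 were higher from iPSC to M, 7 lower from M to CMes, 11 higher and 3 lower from CMes to CP, 20 higher from CP to CM, 10 higher and 1 lower in UBE2B-/-1 and 1 lower in UBE2B-/-2. The protein-coding setting also leaves out transcripts that are not in the annotation. Why each count moved was not tested. Counting identical rows once left all 14 counts within 1.5 times, as did calling on the mean of both lines for the 2 counts it applies to. Where the transcript with the largest absolute z spoke for a gene, CHD4 from CP to CM reversed from −0.60 to 6.42, 3 changes passed the limit for a call and 48 kept their direction and call.

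No paired analysis was possible because the tables hold no value per library, and leaving out a replicate was not possible for the same reason. Replication is over 3 plates of a line only. P-values rest on a variance pooled over the groups of a fit, which Sleuth can raise above the spread seen between replicates. They therefore do not measure the spread between the plates of 1 line alone. For SMARCE1 ENST00000582955.6 in the UBE2B-/- lines, the replicate SD was 0.20 and the standard error 1.48. Depth cannot be weighed.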
